A study of Mus musculus with 15 samples.

Results

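Macrophages and other antigen-presenting cells of the kidney are described here through 10 marker genes: Adgre1, Cd68, Csf1r, Itgam, Itgax, Cd14, Lyz2, Mrc1, Cd74 and H2-Ab1. The probes of a gene were found through their RefSeq accession, and its brightest probe stood for it. On the arrays 9 of the 10 genes were measured, among 16055 genes tested, and Cd68, a lysosomal membrane glycoprotein of macrophages, was matched by no probe accession and has no value. All 15 probes of the 9 genes were well above background on all 15 arrays, so the filter on dim probes removed none.

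RNA of frozen kidneys of male C57/BJ mice was measured, 1 array per mouse, 20 weeks after an operation at 6 weeks of age. In 4 high-fat mice with 1 kidney (HFD UNX) and 4 low-fat mice with 1 kidney (LFD UNX) the left kidney had been removed (uninephrectomy), while in 3 high-fat mice (HFD sham) and 4 low-fat mice (LFD sham) it had only been handled. The low-fat diet is called chow in some labels, and the labels state 6 mice per group, of which these arrays are a part. In whole-kidney RNA a change in the number of macrophages and a change in the RNA that each of them holds cannot be told apart.

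Scan day 1 took in the 7 high-fat mice, on slides 1 and 2, and scan day 2 the 8 low-fat mice, LFD UNX on slide 4 and LFD sham on slide 3. Diet and scan day therefore cannot be told apart, nor can surgery and slide on the low-fat diet. The high-fat groups share their slides: slide 1 holds HFD UNX replicates 1 and 2 and HFD sham replicate 1, and slide 2 holds HFD UNX replicates 3 and 4 and HFD sham replicates 2 and 3. Per array, 60.5% to 73.4% of non-control spots were well above background, and all 17 measured markers of tubule, podocyte and endothelial cells were so on every array. Levels below are log2 processed signals minus the array's 75th percentile, so that 0 is the 75th percentile of the array, and a level of 1 probe is not compared with that of another.

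Antigen-presenting cells take up protein, cut it in acidic vesicles and show the peptides to helper T cells on class II molecules of the major histocompatibility complex. H2-Ab1 is a beta chain of these molecules, and Cd74, the invariant chain, blocks their groove until a peptide can be loaded. Kidney macrophages and dendritic cells sit between the tubules and carry class II molecules in healthy mice, and their survival depends on Csf1r, the receptor for the growth factors Csf1 and Il34.

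Promoters of 3 genes that were higher on slide 1 than on slide 2 are shown first, since this was the only comparison in which any of the 9 genes passed the test. Lyz2 (lysozyme of myeloid cells) is one of the markers, C1qb (a chain of complement C1q, made by tissue macrophages) and H2-Aa (the alpha chain that pairs with H2-Ab1) come from the lists of related genes below. Each run is the 250 bases before the gene's start in RefSeq on GRCm38.p6, read 5′ to 3′ on the minus strand, where all 3 genes lie. Capitals mark GGAAGT, a core bound by the myeloid factor PU.1 and other ETS proteins, or its reverse complement ACTTCC in the Lyz2 and C1qb promoters, and CCAAT or its reverse complement ATTGG, the core of the Y box of class II promoters, in that of H2-Aa.
Lyz2, chr10:117282273-117282522: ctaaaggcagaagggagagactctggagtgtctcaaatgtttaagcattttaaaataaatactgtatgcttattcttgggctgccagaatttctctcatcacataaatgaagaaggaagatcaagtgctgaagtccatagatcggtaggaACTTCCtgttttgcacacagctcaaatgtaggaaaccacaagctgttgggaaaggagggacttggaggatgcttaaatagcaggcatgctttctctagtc
C1qb, chr4:136886201-136886450: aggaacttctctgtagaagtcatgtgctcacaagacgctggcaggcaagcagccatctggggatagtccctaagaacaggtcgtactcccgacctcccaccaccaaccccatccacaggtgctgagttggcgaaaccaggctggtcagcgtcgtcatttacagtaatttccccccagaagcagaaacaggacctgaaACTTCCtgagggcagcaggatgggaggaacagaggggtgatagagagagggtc
H2-Aa, chr17:34287824-34288073: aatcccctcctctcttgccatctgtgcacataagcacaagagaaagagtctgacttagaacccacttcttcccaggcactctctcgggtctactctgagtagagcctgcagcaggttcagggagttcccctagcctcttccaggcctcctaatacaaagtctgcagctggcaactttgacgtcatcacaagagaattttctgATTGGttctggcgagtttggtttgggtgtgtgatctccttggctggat
Each of these promoters held 1 match. GGAAGT stood on either strand in 19.7% of the 32851 promoter windows of this length in the RefSeq table and CCAAT in 33.8%, and no match of one overlapped a match of the other in the printed runs. Of the 10 markers, 5 had a window in the table: Lyz2 and Mrc1 held GGAAGT once, Itgax held it at 2 places, and Itgam and Cd68 held none. CCAAT was found in the windows of Cd68, Itgax and Mrc1. Not all genes higher on slide 1 held a match: the windows of Fcer1g and Ifi30 held neither motif. H2-DMb2 held CCAAT but no GGAAGT. H2-DMa had a window with CCAAT and another with neither motif. A match is a description of the letters only.

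The class II genes and the lysozyme gene had their highest values on the high-fat arrays, and above all on those of slide 1. Cd74 stood at 5.48, 5.17, 4.08 and 4.08 in the 4 HFD UNX mice and at 5.55, 4.63 and 4.32 in the 3 HFD sham mice. It stood at 3.54, 4.22, 4.24 and 3.89 in the LFD UNX mice and at 4.02, 3.88, 3.73 and 4.29 in the LFD sham mice. The HFD sham values lay above all LFD sham values, whereas the 2 lower HFD UNX mice, both on slide 2, lay within the range of the LFD UNX mice.

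H2-Ab1 stood at 5.75, 5.23, 5.19 and 5.10 in the HFD UNX mice and at 5.79, 4.997 and 4.89 in the HFD sham mice. Its levels were 4.32, 4.89, 4.72 and 4.63 in the LFD UNX mice and 4.64, 4.81, 4.61 and 5.17 in the LFD sham mice. Among mice with 1 kidney the diets did not overlap; among sham mice they did, through LFD sham replicate 4.

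Lyz2 stood at 0.20, -0.57, -1.77 and -1.51 in the HFD UNX mice and at -0.57, -1.44 and -2.02 in the HFD sham mice. It stood at -2.31, -1.51, -1.72 and -2.06 in the LFD UNX mice and at -1.71, -1.68, -2.10 and -1.79 in the LFD sham mice. The 3 high-fat mice of slide 1 stood above all others, and the other 4 high-fat mice overlapped with the low-fat mice.

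**Figure D1:**
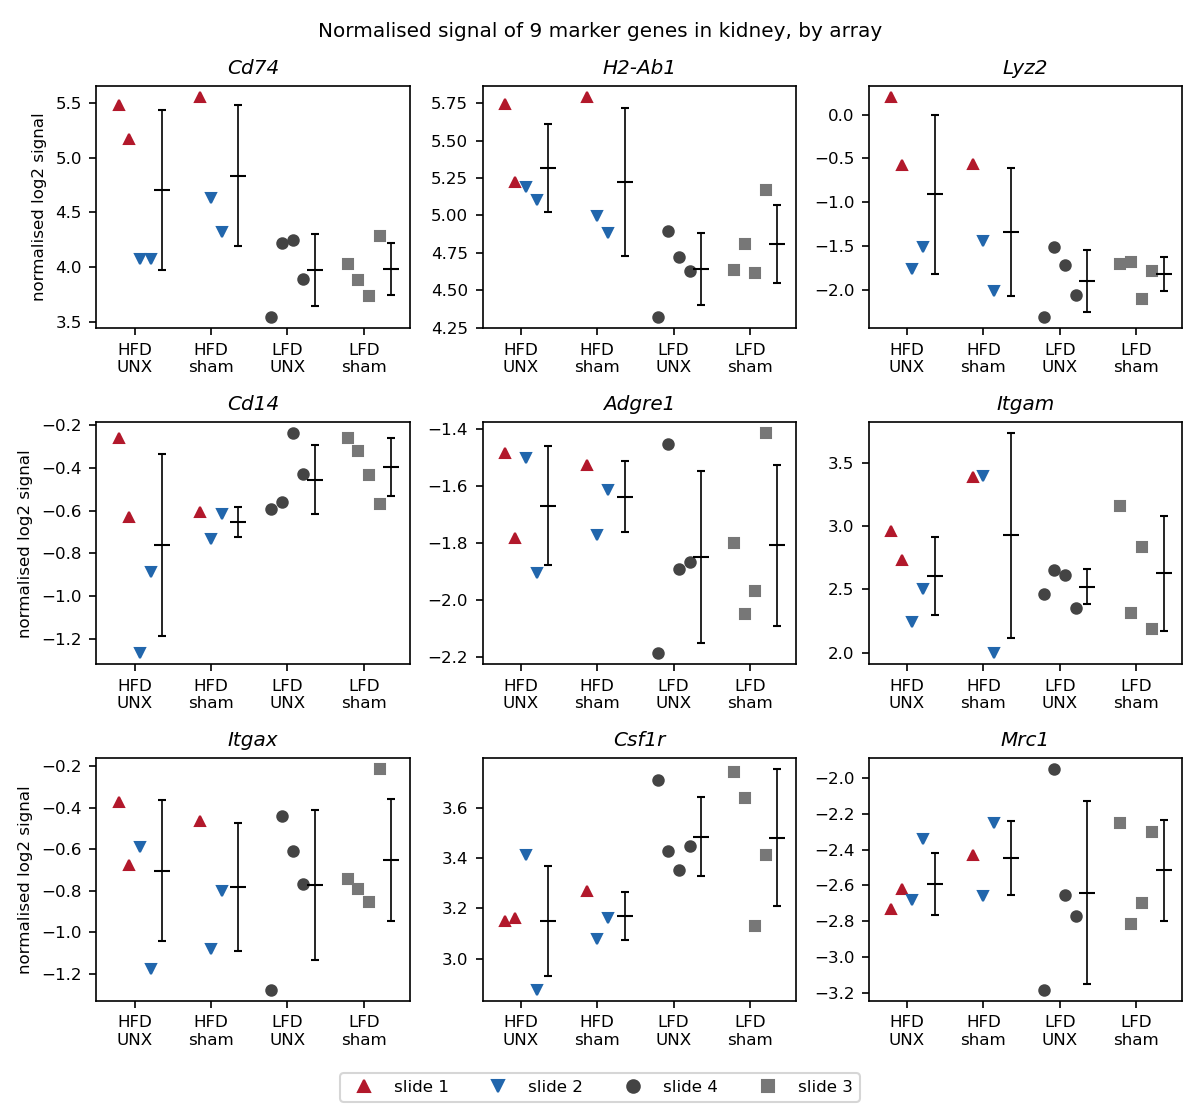
Normalised log2 signal of the 9 measured marker genes on each of the 15 arrays, by group, with the slide given by the symbol and the mean and SD of each group beside its points (n = 4, 3, 4 and 4). In Cd74, H2-Ab1 and Lyz2 the 3 slide 1 arrays are the 3 highest of all 15, with Cd74 at 5.17 to 5.55 against 3.54 to 4.63 on the other 12.

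Cd14 and Csf1r, both surface receptors, had lower means on the high-fat diet, Csf1r by its brightest probe. The other Csf1r probes were not lower in sham mice. Cd14, the co-receptor for bacterial lipopolysaccharide, stood at -0.26, -0.63, -1.27 and -0.89 in the HFD UNX mice and at -0.61, -0.73 and -0.61 in the HFD sham mice. It stood at -0.59, -0.56, -0.24 and -0.43 in the LFD UNX mice and at -0.26, -0.32, -0.43 and -0.57 in the LFD sham mice. The HFD sham mice lay below all LFD sham mice, and the UNX mice of the 2 diets overlapped. Csf1r averaged 3.15 ± 0.22 in HFD UNX, 3.17 ± 0.10 in HFD sham, 3.49 ± 0.16 in LFD UNX and 3.48 ± 0.27 in LFD sham mice (SD, n = 4, 3, 4 and 4), with overlap between the diets in both kinds of surgery.

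The integrin chains, the adhesion receptor and the mannose receptor lay close together in all 4 groups. Adgre1, the classical surface antigen of mouse macrophages, averaged -1.67 ± 0.21 in HFD UNX, -1.64 ± 0.12 in HFD sham, -1.85 ± 0.30 in LFD UNX and -1.81 ± 0.28 in LFD sham mice. Itgax, the alpha X integrin chain of dendritic cells and some macrophages, averaged -0.70 ± 0.34, -0.78 ± 0.31, -0.77 ± 0.36 and -0.65 ± 0.29 in the same groups. In both genes the group means span less than the SD pooled within groups, which was 0.248 for Adgre1 and 0.329 for Itgax.

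Mrc1, the mannose receptor by which macrophages take up glycoproteins, averaged -2.59 ± 0.17 in HFD UNX, -2.45 ± 0.21 in HFD sham, -2.64 ± 0.51 in LFD UNX and -2.52 ± 0.28 in LFD sham mice. Itgam, the alpha M integrin chain of monocytes, macrophages and neutrophils, averaged 2.61 ± 0.31 in HFD UNX, 2.93 ± 0.81 in HFD sham, 2.52 ± 0.14 in LFD UNX and 2.63 ± 0.45 in LFD sham mice. The HFD sham mice spread most in Itgam, at 3.38, 3.40 and 1.99. These Itgam levels are those of its brightest probe, which had r = 0.73 and 0.39 within groups with the gene's other probes.

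Ordered by their means, HFD sham mice were highest and LFD UNX mice lowest in Cd74, followed from the top by HFD UNX and LFD sham mice. In H2-Ab1 and Lyz2 the order was HFD UNX, HFD sham, LFD sham and LFD UNX, and in Cd14 it was LFD sham, LFD UNX, HFD sham and HFD UNX. Neighbouring groups in these orders overlapped in every case but 1, HFD sham against LFD UNX in Cd14.

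None of the 9 genes passed in the diet comparison of the sham mice, where limma called 13.9% of all genes (6.48% higher and 7.41% lower on the high-fat diet) at a Benjamini-Hochberg adjusted p under 0.05. Without adjustment, 1 of the 9 was under 0.05, against 30.2% of all genes. The differences (HFD sham minus LFD sham) had a median of 0.17 over the 9 genes and -0.02 over all genes. Cd74 differed by 0.85 (SE 0.36, 95% interval 0.08 to 1.62, adjusted p = 0.126), Lyz2 by 0.48 (SE 0.42, adjusted p = 0.476) and H2-Ab1 by 0.42 (SE 0.23, adjusted p = 0.249). In 2 of the 9 genes, Cd14 and Cd74, the diets did not overlap, as in 26.2% of all genes.

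In mice with 1 kidney, too, 0 of 9 passed in limma, against 14.2% of all genes (7.67% higher and 6.52% lower), while 4 of the 9 and 29.7% of all genes were under 0.05 without adjustment. H2-Ab1 differed by 0.67 (HFD UNX minus LFD UNX; SE 0.22, 95% interval 0.21 to 1.14), which is 1.60-fold, with an adjusted p of 0.0509 just past the threshold. Lyz2 differed by 0.99 (SE 0.39, adjusted p = 0.102) and Cd74 by 0.73 (SE 0.33, adjusted p = 0.159), whereas Csf1r differed by -0.34 (SE 0.15, adjusted p = 0.155) and Cd14 by -0.31 (SE 0.18, adjusted p = 0.267). The median was 0.09 for the 9 genes and -0.01 for all genes, and H2-Ab1 alone did not overlap, as 22.5% of all genes did not.

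Both diet comparisons depended on which high-fat slide was used. With only the slide 1 mice as the high-fat arrays, Cd74, H2-Ab1 and Lyz2 passed in both: in mice with 1 kidney by 1.35, 0.84 and 1.72 (adjusted p = 0.00121, 0.0103 and 0.000916), and in sham mice by 1.57, 0.98 and 1.25 (adjusted p = 0.00409, 0.0258 and 0.0221). The sham values rest on HFD sham replicate 1 alone, which is assumed to vary like the mice of the other groups. With only the slide 2 mice, the same genes differed by 0.10, 0.50 and 0.26 in mice with 1 kidney and by 0.49, 0.13 and 0.09 in sham mice, and none of these 3 passed (adjusted p = 0.0928 to 0.805). Instead Cd14 passed in mice with 1 kidney at -0.62 (adjusted p = 0.0189), a gene whose difference there was 0.01 with slide 1. With slide as a random block, whose estimated correlation was 0.41, the adjusted p of Cd74, H2-Ab1, Lyz2 and Cd14 for diet lay between 0.277 and 0.759.

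**Figure D2:**
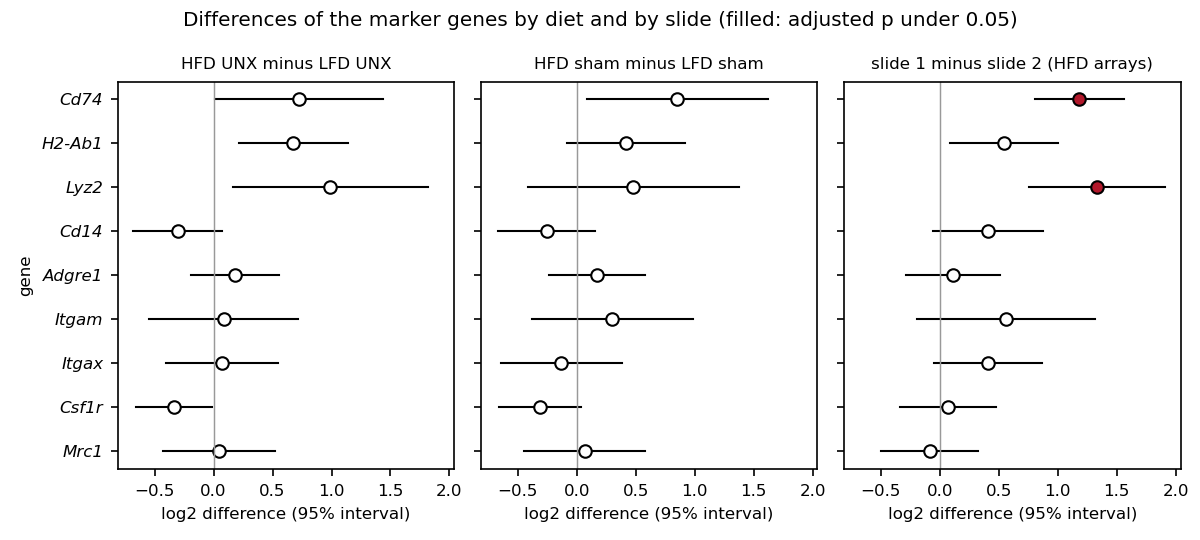
Log2 difference with its 95% interval for each of the 9 genes between diets in mice with 1 kidney, between diets in sham mice, and between slides 1 and 2 among the high-fat arrays; filled points have an adjusted p under 0.05. Only Cd74 and Lyz2 between slides are filled, at 1.18 and 1.33.

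Removal of a kidney moved none of the 9 genes past the test on either diet. On the low-fat diet the differences (LFD UNX minus LFD sham) ran from -0.17 in H2-Ab1 to 0.00 in Csf1r with a median of -0.08, and limma called 0.00623% of all genes. On the high-fat diet (HFD UNX minus HFD sham) they ran from -0.32 in Itgam to 0.43 in Lyz2 with a median of -0.03, and 0.0% of all genes were called. No marker was under 0.05 without adjustment in either, against 3.23% of all genes on the low-fat diet and 4.65% on the high-fat diet. In 0 of 9 the groups did not overlap, against 4.56% and 2.93% of all genes. Most intervals still allow a change: for Lyz2 on the high-fat diet the interval runs from -0.46 to 1.32.

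Within slide 1 the surgery difference on the high-fat diet (2 UNX mice against 1 sham mouse) had a median of -0.12 over the 9 genes, and within slide 2 (2 against 2) a median of -0.01. Cd74 differed by -0.23 within slide 1 and -0.40 within slide 2, and Lyz2 by 0.38 and 0.09. H2-Ab1 had opposite signs, at -0.30 and 0.21, as did Cd14, at 0.16 and -0.40.

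For no gene of the 9 did the interaction of surgery and diet pass in limma (0 passed, 0.0% of all genes called, and 0 markers against 1.36% of all genes under 0.05 unadjusted). The interaction was 0.51 for Lyz2 (95% interval -0.71 to 1.73) and between -0.21 and 0.26 for the others. High-fat mice with 1 kidney against low-fat sham mice gave 0 of 9 in limma, against 19.5% of all genes (10.4% higher and 9.14% lower), with 4 of 9 and 34.0% of all genes under 0.05 unadjusted. In that comparison Lyz2 differed by 0.91 (SE 0.39, adjusted p = 0.112), Cd74 by 0.72 (SE 0.33, adjusted p = 0.143), H2-Ab1 by 0.51 (SE 0.22, adjusted p = 0.111), Cd14 by -0.37 (SE 0.18, adjusted p = 0.159) and Csf1r by -0.33 (SE 0.15, adjusted p = 0.138). The groups overlapped in all 9 genes, while 24.2% of all genes did not overlap. These comparisons share groups with those above and add no independent samples.

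Between the 2 high-fat slides, Cd74 and Lyz2 differed beyond the spread of the mice: 2 of 9 genes passed, both higher on slide 1, where 7.11% of all genes passed in either direction, 4.53% higher and 2.58% lower. Cd74 was 2.27-fold higher on slide 1, at 5.48, 5.17 and 5.55 against 4.08, 4.08, 4.63 and 4.32 on slide 2 (log2 difference 1.18 with surgery as a term, SE 0.16, 95% interval 0.80 to 1.56, adjusted p = 0.0197). Lyz2 was 2.52-fold higher, at 0.20, -0.57 and -0.57 against -1.77, -1.51, -1.44 and -2.02 (log2 difference 1.33, SE 0.25, adjusted p = 0.0359). No value of one slide lay within the range of the other in either gene.

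H2-Ab1 did not overlap between the slides either, at 5.23 to 5.79 on slide 1 against 4.89 to 5.19 on slide 2, but its difference of 0.54 did not pass (SE 0.19, adjusted p = 0.113). In all, 3 of 9 genes and 31.4% of all genes did not overlap, and the median slide difference was 0.41 for the 9 genes and -0.04 for all. Cd14, Itgax and Itgam differed by 0.41, 0.41 and 0.56 without passing (adjusted p = 0.211, 0.205 and 0.276), and Adgre1, Csf1r and Mrc1 by 0.11, 0.07 and -0.09. In Cd74, H2-Ab1 and Lyz2 the 3 slide 1 arrays were also above all 12 other arrays, as in 9.78% of genes; for Lyz2 they spanned -0.57 to 0.20, against -2.31 to -1.44 on the others.

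The signal at the 75th percentile of an array ran from 700.1 to 1262 on slide 1, against 1069 to 3433 on slide 2, and 65.7% to 70.1% of the spots were well above background on slide 1, against 69.6% to 73.4% on slide 2; the part of these in the slide difference was not tested. With normexp background correction the Cd74 difference was 1.15 (adjusted p = 0.103) and that of Lyz2 0.84 (adjusted p = 0.141), and 8 of all genes passed, against 1141 in the main setting. Leaving out 1 of the 7 mice gave Cd74 differences of 1.09 to 1.25 and Lyz2 differences of 1.11 to 1.498, but both genes passed only without HFD sham replicate 2, Cd74 alone without HFD sham replicate 3, and neither in the other 5 fits (adjusted p up to 0.120 and 0.149).

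Some class II pathway genes and the complement genes C1qa and C1qb were among those higher on slide 1. Of 14 measured genes of the class II pathway, 4 passed, all higher on slide 1, where 4.53% of all genes were higher: H2-Aa by 1.24 (adjusted p = 0.0210), H2-DMa by 1.12 (0.0270) and H2-DMb2 by 1.19 (0.0402), subunits of the class II molecule and of its peptide editor H2-DM, and Ifi30, a lysosomal thiol reductase, by 0.66 (0.0469). H2-Aa stood at 2.98, 2.73 and 2.80 on slide 1, against 1.51, 1.32, 1.91 and 1.79 on slide 2 and 1.33 to 2.29 on the low-fat arrays. The list's median was 0.24, beside -0.04 over all genes, and 3 of its 14 differences were negative. Of the genes on all lists, 14 passed between slides; 0 of these passed with normexp and 0 passed in every fit that left out 1 array, a check added after seeing the data.

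Of 15 measured genes of resident macrophages, 3 were higher on slide 1. C1qa and C1qb, chains of complement C1q, were higher by 1.30 (adjusted p = 0.0157) and 1.33 (adjusted p = 0.0252), and Fcer1g, the signalling chain of Fc receptors, by 1.04 (adjusted p = 0.0428). C1qa stood at 1.59, 1.12 and 1.48 on slide 1, against 0.12, 0.17, 0.02 and 0.09 on slide 2. The low-fat arrays ran from -0.01 to 1.01, below all 3 slide 1 arrays. The list's median was 0.58.

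In 3 of the remaining myeloid lists 1 gene each passed, a count to be read beside the 7.11% of all genes that passed between slides. Spi1, which encodes PU.1, was higher by 2.26 (adjusted p = 0.0370), as 1 of 8 genes of colony-stimulating factor signalling; it was well above background on 10 of the 15 arrays, 3 of 3 on slide 1 and 3 of 4 on slide 2. Itgb2, the integrin beta chain that pairs with Itgam and Itgax, was higher by 0.90 (adjusted p = 0.0486), as 1 of 11 monocyte genes, and Batf3, a transcription factor of cross-presenting dendritic cells, by 0.80 (adjusted p = 0.0420), as 1 of 10 dendritic cell genes. No gene of the alternatively activated (8 measured), lipid-associated (8) or pan-leukocyte (5) lists passed, and their medians were 0.06, -0.39 and 0.41. The summed linear signal of the 5 pan-leukocyte genes, on a scale where 1 is the array's 75th percentile, ran from 5.57 to 7.20 on slide 1, against 4.36 to 5.96 on slide 2. What part leukocyte number has in the slide difference was not tested.

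**Figure D3:**
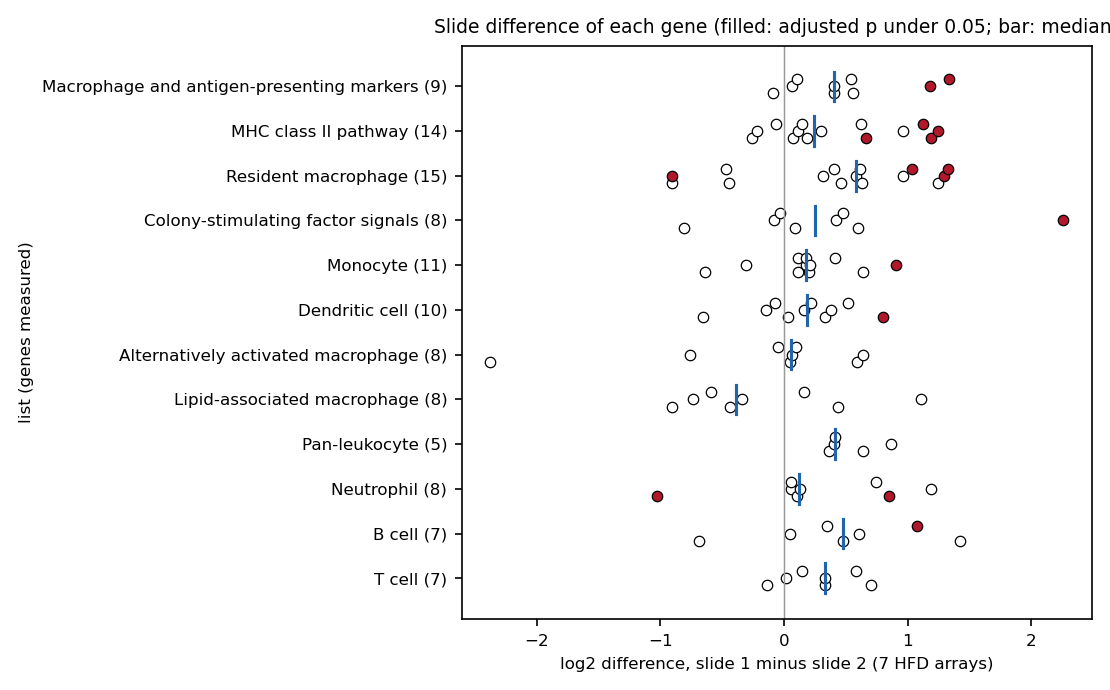
Log2 difference between slide 1 and slide 2 of the high-fat arrays for each measured gene of the macrophage and antigen-presenting cell markers and of 11 lists of related cell types; filled points have an adjusted p under 0.05, and the bar is the list's median. The markers have a median of 0.41 and the resident macrophage genes one of 0.58.

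No gene of these lists passed both between slides and between diets. With slide as a random block, a check added for the lists after seeing the data, 26 of all genes passed for diet in mice with 1 kidney and 14 in sham mice, against 2278 and 2230 without it, and no diet call on a myeloid list given here passed (adjusted p = 0.134 to 0.465). H2-Ob, a subunit of the inhibitor of H2-DM made by B cells and some dendritic cells, was higher in HFD UNX than in LFD UNX mice by 0.90 (adjusted p = 0.0159) and in HFD sham than in LFD sham mice by 1.09 (adjusted p = 0.0103). Ciita, the master activator of class II genes, was at least 1.56-fold higher in HFD UNX mice against the lowest measurable signal (adjusted p = 0.0219), and was well above background on 4 of 4 HFD UNX arrays, against 1 of 4 LFD UNX arrays. These were 2 of 14 class II pathway genes in mice with 1 kidney (median 0.31) and 1 of 14 in sham mice (median 0.20). Of all genes, 7.67% and 6.48% were called higher there, and 14.2% and 13.9% in either direction. H2-Aa, H2-DMa and H2-DMb2 differed by 0.37, 0.45 and 0.77 in mice with 1 kidney and by 0.31, 0.22 and 0.57 in sham mice without passing.

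Of 10 dendritic cell genes, 3 were higher in HFD UNX than in LFD UNX mice and 2 in HFD sham than in LFD sham mice, where 7.67% and 6.48% of all genes were higher. Flt3, a growth factor receptor of dendritic cell precursors, was higher by 0.81 (HFD UNX minus LFD UNX, adjusted p = 0.00784) and by 0.85 (HFD sham minus LFD sham, adjusted p = 0.0113). Ccr7, the homing receptor that guides dendritic cells and lymphocytes to lymph nodes, was higher by 1.08 (adjusted p = 0.0116) and 1.06 (adjusted p = 0.0195), and Cd209a, a lectin of dendritic cells, by 0.92 in mice with 1 kidney (adjusted p = 0.0463). The list's medians were 0.40 and 0.31.

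None of the 15 resident macrophage genes passed for diet in either kind of surgery (medians 0.12 in mice with 1 kidney and -0.06 in sham mice), while 14.2% and 13.9% of all genes did; Mertk, a receptor for dying cells, was higher by 0.62 in HFD UNX than in LFD sham mice (adjusted p = 0.0146). Of 8 genes of colony-stimulating factor signalling, Csf3r, the receptor for granulocyte colony-stimulating factor, was lower by 0.56 and 0.88 on the log2 scale for diet in mice with 1 kidney and in sham mice (adjusted p = 0.0270 and 0.00518). No monocyte gene passed for diet, and Chil3 alone differed between HFD UNX and LFD sham mice, at -1.19 (adjusted p = 0.0425). The monocyte medians were 0.09 and 0.11.

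Genes of alternatively activated and lipid-associated macrophages went both ways. Il4ra, a chain of the interleukin receptor that drives alternative activation, was lower on the high-fat diet by 0.90 in mice with 1 kidney (adjusted p = 0.00380) and by 0.74 in sham mice (adjusted p = 0.0166), and Retnla by 3.46 in sham mice (adjusted p = 0.0498). The HFD sham mice stood at -4.66, -6.13 and -1.25 in Retnla, the last within the LFD sham range of -1.90 to 0.37. The Retnla call passed in 1 of the 7 fits that left out 1 array. Ear2 was higher by 0.94 in mice with 1 kidney (adjusted p = 0.0210). Arg1 (arginase) was lower there; it was well above background on 0 of 4 HFD UNX and 2 of 4 LFD UNX arrays, and was at least 2.45-fold lower against the lowest measurable signal (adjusted p = 0.0337). Of all 15 arrays, only LFD UNX replicates 3 and 4 and LFD sham replicate 1 had Arg1 well above background (-3.49, -3.52 and -5.025). The same 3 arrays were the highest in the liver gene Ahsg, at 1.29, 1.54 and 0.95, against -1.78 or less on the others. Their mean log2 level over the liver list was the highest too, at 1.83, 2.02 and 1.40. Whether the Arg1 signal came from macrophages was not tested. In all 3 of 8 genes passed in mice with 1 kidney and 2 of 8 in sham mice, with medians of 0.15 and 0.07.

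Trem2, a lipid receptor of macrophages, was higher by 0.73 in HFD UNX than in LFD UNX mice (adjusted p = 0.0474), and Lpl (lipoprotein lipase) was lower by 1.64 (adjusted p = 0.00897), as 2 of 8 lipid-associated genes (median -0.12). In sham mice Lgals3 (galectin) was lower by 1.03 (adjusted p = 0.00483), as 1 of 8 (median -0.04). None of the pan-leukocyte genes passed for diet; their medians were 0.42 in mice with 1 kidney and 0.60 in sham mice, with all 5 differences positive in both. No gene of any of the 17 lists passed for surgery on either diet or in the interaction.

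Cd74 and Lyz2 varied together from mouse to mouse, while the brightest Csf1r probe followed none of the other genes. After the group means were taken out, Pearson's r over the 15 arrays was 0.95 for Cd74 and Lyz2, 0.83 for Cd74 and H2-Ab1, and 0.89 for Adgre1 and Itgax; the arrays share slides, so these are descriptions. With the 2 high-fat slides taken out as well, r was 0.81, 0.86 and 0.93. For Cd74 and Adgre1 it was 0.46 before and 0.71 after the slides were taken out, and for Cd14 and Lyz2 0.73 before and 0.45 after. Csf1r, by its brightest probe, had r between -0.21 and 0.08 with the other 8 genes. Its other probes had r = 0.73 and 0.54 with Cd74.

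**Figure D4:**
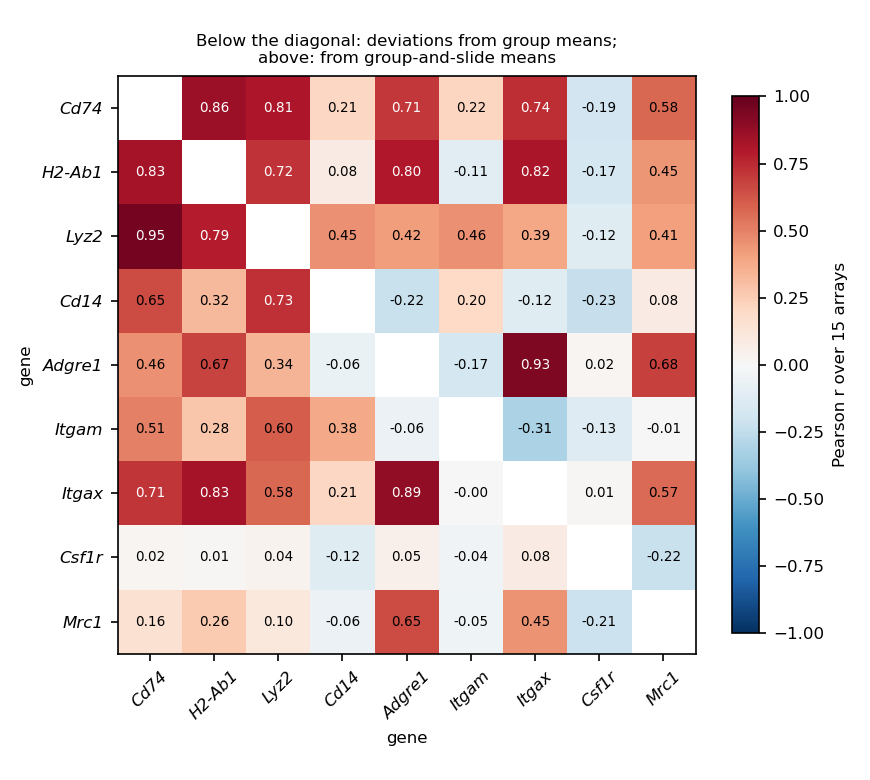
Pearson's r over the 15 arrays for each pair of the 9 genes, below the diagonal for deviations from the 4 group means and above it for deviations from the means of each group on each slide. Each gene is given by its brightest probe. Cd74, H2-Ab1, Lyz2, Adgre1 and Itgax have positive r with each other on both sides of the diagonal. This Csf1r probe lies near 0, between -0.21 and 0.08 below the diagonal.

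The genes most like Cd74 over the 15 arrays, among 16012 with a value on every array, were Fermt3, C1qb and C1qa (r = 0.98, 0.97 and 0.97 of the deviations from the group means; 0.90, 0.94 and 0.90 with the slides taken out). For Lyz2 they were Lgals9, Fermt3 and Ifitm3 (each 0.96, and 0.86 to 0.87 with the slides taken out). For H2-Ab1 they were Batf3, Clec4b1 and Fcgr1 (0.93, 0.93 and 0.91). In Cd74, 19 genes had an r above 0.95 before and 1 after the slides were taken out, and in Lyz2 11 before and 0 after.

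For Adgre1 the nearest genes were Cd86, Clec9a and Nckap1l (r = 0.93, 0.90 and 0.90), for Itgax Fcgr4, Il2rb and Slamf8 (0.96, 0.94 and 0.92), for Cd14 Stx11, Khnyn and Glipr2 (0.95, 0.88 and 0.88), and for Mrc1 Akip1, Inpp5d and P2rx7 (0.87, 0.84 and 0.82). Cd86, a co-stimulatory ligand for T cells, and Clec9a, a receptor for dead cells, are known from antigen-presenting cells. The 3 nearest to Csf1r were Lingo4, Cbs and Resf1 (0.88, 0.86 and 0.84), and those nearest to Itgam were Hexim2, Pdcd4 and Fgf23 (0.997, 0.996 and 0.996).

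Probes of 1 gene did not always follow each other. The 2 probes of H2-Ab1 had r = 0.93 within groups, and the second probe differed by 0.63 for diet in mice with 1 kidney (adjusted p = 0.102 over all 28244 probes kept) and by 0.39 between slides (adjusted p = 0.389). The second probe of Adgre1 (r = 0.55 with the first) was higher on slide 1 by 0.76 (SE 0.17, adjusted p = 0.0490, among 3.15% of probes higher there), at -1.69, -1.81 and -1.86 against -2.77, -2.60, -2.40 and -2.29 on slide 2. Its r with Cd74 was 0.91, against 0.46 for the brighter probe.

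The other probes of Csf1r and Itgam also followed a course of their own. Mean levels over the 15 arrays were 3.33 for the brightest Csf1r probe and -0.52 and -1.18 for its others. In Itgam they were 2.65 for the brightest probe and -4.39 and -4.54 for the others. Whether all probes of a gene bind the same transcript was not tested. For Csf1r, r with the brightest probe was 0.25 and 0.12, and r with Cd74 was 0.73 and 0.54, against 0.02 for the brightest probe. For diet, these other Csf1r probes differed by 0.17 and 0.06 in sham mice, where the brightest differed by -0.31. In mice with 1 kidney they differed by -0.05 and 0.30, where the brightest differed by -0.34. None of these differences passed. The second Csf1r probe stood at 0.24, 0.52 and -0.21 on slide 1, against -1.24, -1.63, -0.31 and -0.78 on slide 2, a difference of 1.22 that did not pass (SE 0.34, adjusted p = 0.0714). One of the dimmer Itgam probes was higher in HFD UNX than in LFD sham mice by 0.98 (SE 0.27, adjusted p = 0.0241, among 10.2% of probes higher there), at -4.50, -3.12, -4.22 and -3.90 against -4.68, -5.47, -4.86 and -4.66. Its r with the brightest Itgam probe was 0.39.

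**Figure D5:**
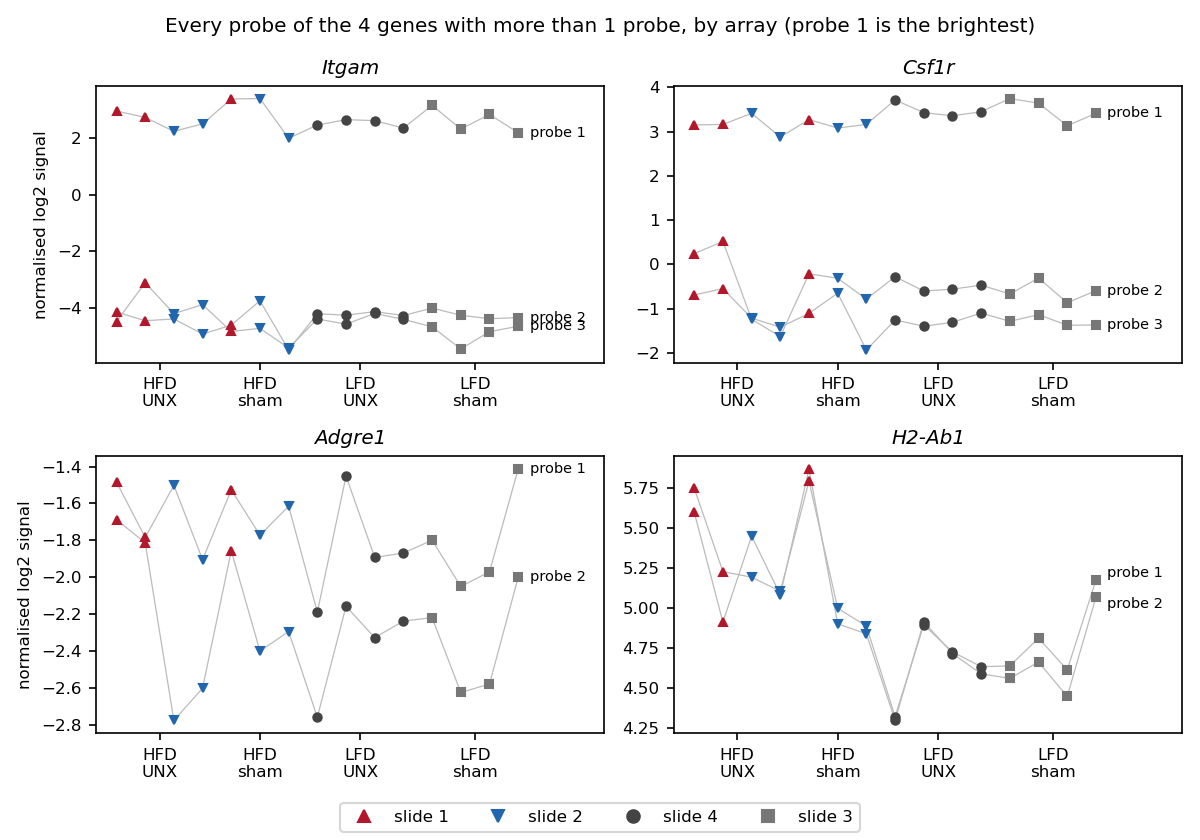
Normalised log2 signal of every probe of the 4 genes with more than 1 probe, on the 15 arrays in group order, with the slide given by the symbol; lines join the values of 1 probe. The 2 H2-Ab1 probes run together, and the second probe of Adgre1 is higher on slide 1 (-1.86 to -1.69) than on slide 2 (-2.77 to -2.29).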

How the data were processed

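Kidney RNA (100 ng, labelled with Cy3) of 15 mice was measured on 1-colour Agilent arrays of design 026655. Feature Extraction 10.7.3.1, per the file headers, made the deposited processed signals, which are background-subtracted linear intensities, and the well-above-background marks. The table of values that the authors deposited beside them holds these linear intensities, rounded (0.995 to 1.005 of the processed signal); it was used only as an alternative.

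From the deposited intensities, control and outlier-marked spots were left out, log2 was taken, and each array's 75th percentile was subtracted. Of 39429 non-control probes, 27234 were named through their RefSeq accession. A probe had to be well above background on 3 or more arrays, and the brightest of a gene stood for it. Groups were compared with limma 3.58.1 (R 4.3.3) over 16055 genes, on all 15 arrays, and the slides on the 7 high-fat arrays with surgery as a term. The threshold was a Benjamini-Hochberg adjusted p under 0.05. The tests were tried on simulated data. Precision is limited by how many arrays each group has.

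All 10 markers are named, from each of 17 lists (143 genes) up to 4 genes that passed in a comparison, lowest p first, and the 3 genes most like each marker; some listed genes are not reported here. Markers and lists were chosen with earlier results of these data known. Alternatives were another percentile, quantile scaling, normexp (on median signals, since mean signals were not in the files used), other filters, array weights, slide and replicate blocks, and leaving out each array. The fits with 1 high-fat slide, the slide fit on all arrays, the second-brightest probe and the alternatives for list genes were chosen after seeing the data.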

Additional observations from a re-analysis of the deposited data

How the results depend on the processing

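No result reversed. Of 1440 values of single genes under the alternatives, 1252 kept their direction and their side of the threshold, 16 lost and 34 gained a pass, and 138 that passed in neither setting changed sign. Between the high-fat slides, where 2 of the 9 genes passed, 0 passed with normexp, 1 (Cd74) without the dim filter, and 0 to 2 when 1 array was left out: 0 without HFD sham replicate 1 or any one of HFD UNX replicates 1, 2, 3 and 4, and 1 without HFD sham replicate 3. For diet in mice with 1 kidney, where 0 passed, H2-Ab1 made it 1 without the dim filter, with probes above background on all 15 arrays, or with only the arrays compared. There, Cd74, H2-Ab1 and Lyz2 made it 3 with array weights, with slides 1 and 2 as a fixed block, or with slide 1 only, and Cd14 made it 1 with slide 2 only; leaving out 1 array gave 0 to 2 (H2-Ab1 and Lyz2 without HFD UNX replicate 3). For diet in sham mice, 2 passed with the fixed block (Cd74 and Lyz2) and 3 with slide 1 only. For high-fat mice with 1 kidney against low-fat sham mice, 3 passed with array weights, the fixed block or slide 1 only, 1 (Cd14) with slide 2 only, and 0 to 1 when 1 array was left out (Cd14 without HFD UNX replicate 1, Lyz2 without HFD UNX replicate 3). With the replicate block 0 passed between slides, with differences of 0.70 for Cd74 and 0.36 for Lyz2 (adjusted p = 0.987). Same-numbered HFD UNX and HFD sham arrays that share a slide deviated together (mean r = 0.38, n = 2 pairs). For same-numbered arrays on different slides, the mean r of each pair of groups ran from -0.09 to 0.12. Some of these means lay above and some below those of arrays with other numbers. These values do not decide whether replicate numbers pair the mice. The cause of the shifts in these counts was not tested.

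Over these alternatives the limma adjusted p ran from 0.000775 to 0.987 for Cd74 and from 0.00145 to 0.987 for Lyz2 between slides, and from 0.00841 to 0.392 for H2-Ab1 for diet in mice with 1 kidney. Counts over all genes moved too. Between slides 1141 genes passed, against 8 with normexp, 142 without the dim filter, 746 with the 50th percentile, 2033 with probes above background on all 15 arrays, 4984 with a slide term fitted on all 15 arrays and 25 with the replicate block. Leaving out 1 array gave 39 without HFD sham replicate 1, 3066 without HFD sham replicate 2, 330 without HFD sham replicate 3, and 54, 76, 45 and 90 without HFD UNX replicates 1, 2, 3 and 4. For diet 2230 passed in sham mice, against 14 with slide as a random block, 161 with normexp, 4850 without the dim filter and 1433 with the 50th percentile, and 2278 in mice with 1 kidney, against 26 with the random block, 316 with normexp and 3596 without the dim filter. Of high-fat mice with 1 kidney against low-fat sham mice 3131 passed, against 84 with the random block, 481 with normexp and 5177 without the dim filter. Of the list genes that passed for diet, 24 in mice with 1 kidney and 16 in sham mice, 1 passed in each with the random block (Car3). With the 50th percentile the median of all genes between slides was -0.12.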

Other observations

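Some lymphocyte genes passed for diet, though a random block for slide left none of these calls past the threshold (limma adjusted p = 0.157 to 0.444). Of all genes, 14.2% passed for diet in mice with 1 kidney (7.67% higher and 6.52% lower). In sham mice 13.9% did (6.48% higher and 7.41% lower). Of 7 measured T cell genes, 3 were higher in HFD UNX than in LFD UNX mice: Cd3e, a chain of the T cell receptor complex, by 1.25 (limma adjusted p = 0.00558), the co-receptor Cd4 by 0.68 (0.0175), and Cd27, at least 1.48-fold against the lowest measurable signal and well above background on 0 of 4 LFD UNX arrays (0.00879). In sham mice Cd4 alone was higher, by 0.62 (adjusted p = 0.0388). The summed linear signal of the T cell list ran from 3.24 to 3.67 in HFD UNX and 2.32 to 3.45 in HFD sham mice, against 1.85 to 2.26 in LFD UNX and 1.99 to 2.24 in LFD sham mice; diet and scan day cannot be told apart here either. Of 7 B cell genes, Cd79b, a chain of the B cell receptor, was higher by 1.15 in mice with 1 kidney (adjusted p = 0.00743) and 1.18 in sham mice (adjusted p = 0.0116), and Ms4a1 by 1.54 in mice with 1 kidney (adjusted p = 0.0411), whereas the complement receptor Cr2 was lower, at -0.45 (adjusted p = 0.0297) and -0.62 (adjusted p = 0.0108). Between slides no T cell gene passed, and of the B cell genes Fcer2a was higher on slide 1 by 1.08 (adjusted p = 0.0285). Of all genes, 4.53% were higher on slide 1.

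Of 8 neutrophil genes, S100a8 and S100a9, calcium-binding proteins of neutrophils and monocytes, were lower on the high-fat diet, at -1.80 and -1.77 in mice with 1 kidney (adjusted p = 0.00279 and 0.00380) and at -2.22 and -1.95 in sham mice (adjusted p = 0.00204 and 0.00402), and Elane was higher in sham mice by 0.77 (adjusted p = 0.0255). On slide 1 Ltf was higher by 0.85 (adjusted p = 0.0464) and Mpo was at least 1.60-fold lower (adjusted p = 0.0407), well above background on 0 of 3 slide 1 arrays. Of 8 adipocyte genes, Car3 was lower for diet, at -1.73 in mice with 1 kidney and -1.64 in sham mice (adjusted p = 4.56e-05 and 7.56e-05), Cfd in sham mice, at -2.90 (adjusted p = 0.0363), and Lep was at least 1.94-fold higher in HFD UNX than in LFD UNX mice (adjusted p = 0.0392). Of 5 liver genes Ttr was higher by 1.53 and 1.73 (adjusted p = 0.00120 and 0.00177), and Ahsg was at least 33.5-fold lower in HFD UNX than in LFD UNX mice (adjusted p = 0.0138), well above background on 1 of 4 HFD UNX arrays. That fold compares group means, and the LFD UNX mice were split, at -3.32, -4.52, 1.29 and 1.54 in Ahsg. All of them lay above the HFD UNX mice. Of 4 endothelial genes Cdh5 was higher in mice with 1 kidney by 0.51 (adjusted p = 0.0263). The counts of these lists stand beside 14.2% of all genes called for diet in mice with 1 kidney and 13.9% in sham mice. Between slides 7.11% of all genes passed. No proximal tubule, distal nephron or podocyte gene passed for diet, and no adipocyte, liver, endothelial, tubule or podocyte gene between slides; Wt1, a transcription factor of podocytes, was lower in HFD UNX than in LFD sham mice, at -0.65 (adjusted p = 0.0450).

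In Itgam, 22 of 16011 genes had an r above 0.95 with its brightest probe within groups, and 23 with the slides taken out. None of the 3 nearest, Hexim2, Pdcd4 and Fgf23, is on a list of leukocyte genes used here, and the brightest probe had r = 0.73 and 0.39 with the other Itgam probes.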
